A study of Mus musculus with 4 samples.

Results

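The chaperonin containing TCP-1 (CCT, also called TRiC) is the folding machine of the eukaryotic cytosol. Its 8 subunits are encoded by Tcp1, Cct2, Cct3, Cct4, Cct5, Cct6a, Cct7, and Cct8. All 8 were read by gene symbol from the deposited tables. The reading used no measured value, although earlier results of these data were known when the subunits were chosen. They were 8 of the 20714 symbols listed in both assays. None of the 8 symbols was listed more than once in a table, and all 8 passed the filter used for testing.

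The study followed protein, translation, and transcription in mouse oocytes and early embryos, and the blastocyst libraries were analysed here, 2 for RNA-seq and 2 for Ribo-seq. RNA-seq (Smart-seq2, on polyA RNA) measured the mRNA level. Ribo-seq measured the ribosome-protected fragments (RPFs), which are the pieces of mRNA covered by ribosomes after RNase I digestion of a lysate made with cycloheximide. Each level is given in FPKM, the number of fragments scaled by the length of the gene and by all mapped fragments. Genes of like length can thus be compared within an assay, whereas the RPF levels of short genes are raised, as described below. All 4 libraries came from wild-type embryos of C57BL/6J females, aged 4 weeks, mated with PWK/PhJ males. The strain field of the labels reads C57BL/6N x PWK instead. The females were injected with the hormones PMSG and hCG to induce ovulation, and the embryos were otherwise untreated. The paper warns that superovulation and culture in vitro may affect embryos and their proteomes. Embryos were taken at the 8-cell stage and grown to blastocysts in vitro in KSOM medium, and the zona pellucida was removed. Whole blastocysts were lysed, so trophectoderm, epiblast, and primitive endoderm cannot be told apart, and neither can the number of cells and the RNA per cell.

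CCT is built of a pair of stacked rings, and each ring holds 1 copy of each of the 8 subunits, so the assembled complex needs them in equal numbers. Each subunit has an ATP-binding domain that drives the closing of the ring and an apical domain that contacts the substrate. Actin and tubulin depend on CCT to reach their native fold. Prefoldin hands unfolded chains to it, and phosducin-like proteins act as cofactors.

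The 8 genes lay on 8 chromosomes of the NCBIM37 assembly (the sequence of mm9), with coding lengths of 1599 to 1671 bases in GENCODE vM1 and a coding GC content of 44.5% to 51.5%. A conserved stretch of the coding sequences, at the ATP-binding motif, is shown as a place where RPFs of different subunits might be confused. Whether other stretches are more alike was not searched. Each sequence is 28 bases long, about the size of an RPF, is written in the sense of the mRNA, and has the 12 bases of the motif in capitals. The Cct7 stretch runs across the junction of exons 3 and 4, and the others each lie in 1 coding exon.
Tcp1 (chr17:13111009-13111036, plus strand, exon 3): aagaagttGGAGATGGAACTacctcagt
Cct2 (chr10:116498589-116498616, minus strand, exon 5): atgaagttGGTGATGGCACTacctctgt
Cct3 (chr3:88106748-88106775, plus strand, exon 5): aagaggttGGAGATGGGACCacatcagt
Cct4 (chr11:22895958-22895985, plus strand, exon 4): tagaagcaGGAGATGGCACCacgtcggt
Cct5 (chr15:31527171-31527198, minus strand, exon 3): atgaaattGGAGATGGGACCacaggagt
Cct6a (chr5:130294984-130295011, plus strand, exon 3): acataactGGCGATGGCACTacatccaa
Cct7 (chr6:85410038-85411061, plus strand, exons 3 and 4): ctgaggttGGTGATGGCACCacctcagt
Cct8 (chr16:87491617-87491644, minus strand, exon 4): aagaggttGGTGATGGCACAaacttcgt
The motif begins between codons 87 and 103 of the 8 proteins. Across the 8 stretches, 9 of the 12 motif bases were identical in every subunit, against 10 of all 28 bases. Any pair of stretches still differed at 4 to 13 bases, whereas the mapping of RPFs by the authors allowed 2 mismatches. Over the whole coding sequences, no window of 28 bases was shared between any 2 of the 8 subunits. Only exact matches were counted there, not windows within 2 mismatches or shorter stretches.

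Some windows of single subunits also occurred elsewhere in the genome. The share of such windows was 0% for Cct5 and Cct8, 0.51% for Cct2, 2.04% for Cct6a, 5.35% for Tcp1, 6.72% for Cct4, 14.4% for Cct7, and 19.9% for Cct3. The levels of Cct3 and Cct7 are thus the least certain of the 8 where reads were placed by sequence alone. These windows were counted over the genome, whereas the authors mapped to the transcriptome. Cct6a had 11 windows at more than 20 places, the limit of the mapping, and no other subunit had any.

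The bases around the start codons are shown because translation begins there. In each sequence the start codon is in capitals.
Tcp1 start: ctgaagATGg
Cct2 start: ggaaccATGg
Cct3 start: gccgccATGa
Cct4 start: gtcgccATGc
Cct5 start: tccaccATGg
Cct6a start: ccagccATGg
Cct7 start: tccaagATGa
Cct8 start: cgagccATGg
A purine stood at position -3, counted from the A of the start codon, in 8 of 8 subunits, against 84.1% of 19734 genes. A G followed the start codon in 5 of 8, against 49.4% of the same genes. Cct3, Cct4, and Cct7 lacked that G. The bases around all 8 start codons were read from the genome, and whether any of them belong to an intron was not checked. For Cct6a the annotated transcript begins at the start codon.

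CCT transcripts were abundant in blastocysts. Depending on the subunit and library, the mRNA level stood at percentile 97.5 to 98.8 and the RPF level at percentile 96.9 to 97.9. These percentiles are over the 20714 symbols listed in both assays, those at 0 included. In the whole libraries, 12176 of 25039 symbols were at 0 in RNA-seq replicate 1 and 10504 of 20756 in Ribo-seq replicate 1. The summed mRNA level of the 8 subunits was 1708 and 1702 FPKM in RNA-seq replicates 1 and 2, which was 0.327% and 0.318% of the FPKM of all genes. The summed RPF level was 4274 and 3858 FPKM in Ribo-seq replicates 1 and 2, or 0.224% and 0.196% of all FPKM. FPKM of the 2 assays are not on a common scale, since the values of all genes sum to different totals.

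The depth behind these values differed between assays. Steps among low FPKM values implied about 5438373 and 5173658 fragments in the RNA-seq replicates and 533381 and 483202 in the Ribo-seq replicates. At that depth each subunit rested on about 355 to 478 RPFs in Ribo-seq replicate 1 and 286 to 393 in replicate 2. Counting error alone therefore gave the RPF mean of a subunit an SD of 0.05 on the log2 scale. Of the 13 blastocyst markers, 13 were above 0 in each Ribo-seq library, and 13 and 11 were in RNA-seq replicates 1 and 2. At 1 FPKM or more there were 13 in each Ribo-seq library, but 10 and 9 in RNA-seq replicates 1 and 2. Sox2, Gata4, and Sox17 stayed under 1 FPKM in both RNA-seq libraries. The RNA-seq replicates also differed in Nanog, at 69.8 and 28.1 FPKM, and in Pou5f1, at 70.1 and 28.6 FPKM. The 6 oocyte and follicle cell markers summed to at most 1.92 FPKM in any library, with Zp3 as the main contributor and Oosp1, Cyp19a1, Fshr, and Inhba listed at 0 in all 4.

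The mRNA levels of the 8 subunits were unequal, and Cct5 and Cct4 stood above the rest. Cct5, which encodes the epsilon subunit, had the highest mRNA level, at 316 and 348 FPKM in RNA-seq replicates 1 and 2. Cct4, encoding the delta subunit, followed at 302 and 281 FPKM. Both libraries of Cct5 lay above both of Cct4, and both of Cct4 lay above those of the other 6 genes. Cct8 (theta subunit) was next, at 206 and 213 FPKM, and also stood clear of the genes under it.

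The other 5 subunits lay close together at the mRNA level. Tcp1, the alpha subunit for which the complex is named, was at 189 and 193 FPKM, and Cct6a (zeta subunit) was at 195 and 172 FPKM. Cct2 (beta) was at 157 and 185 FPKM, and Cct3 (gamma) was at 182 and 154 FPKM. Cct7 (eta) had the lowest mean, at 160 and 156 FPKM. From Tcp1 down to Cct7, each gene overlapped with the next in the order. Over all 28 pairs of subunits, 22 did not overlap between the replicates, and the highest mean was 2.10 times the lowest. With 2 libraries per gene, some pairs are apart by replicate error alone, and pairs of other genes were not counted.

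The RPF levels were closer to each other, and their order was different. Cct6a had the highest mean RPF level, at 591 and 571 FPKM in Ribo-seq replicates 1 and 2, and Cct2 was level with it, at 636 and 525 FPKM. Cct4 was at 516 and 573 FPKM, and Cct8 was at 588 and 501 FPKM. The means of Cct4 and Cct8 were both 544 FPKM. Tcp1 had the widest gap between replicates of the 8, at 523 and 409 FPKM.

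The lower end of the RPF order held Cct7, at 470 and 446 FPKM, Cct5, at 487 and 415 FPKM, and Cct3, at 464 and 419 FPKM. Cct5, first at the mRNA level, was thus seventh at the RPF level. No subunit was separated from the next in the RPF order beyond the spread of its replicates. Among the 28 pairs, 14 did not overlap, with the same limit as for mRNA, and the highest mean was 1.32 times the lowest. In 7 of 8 subunits the RPF level was lower in Ribo-seq replicate 2 than in replicate 1, with a median log2 difference of -0.19, against -0.06 for all genes tested. Cct4 was the exception, at a log2 difference of 0.15.

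**Figure D1:**
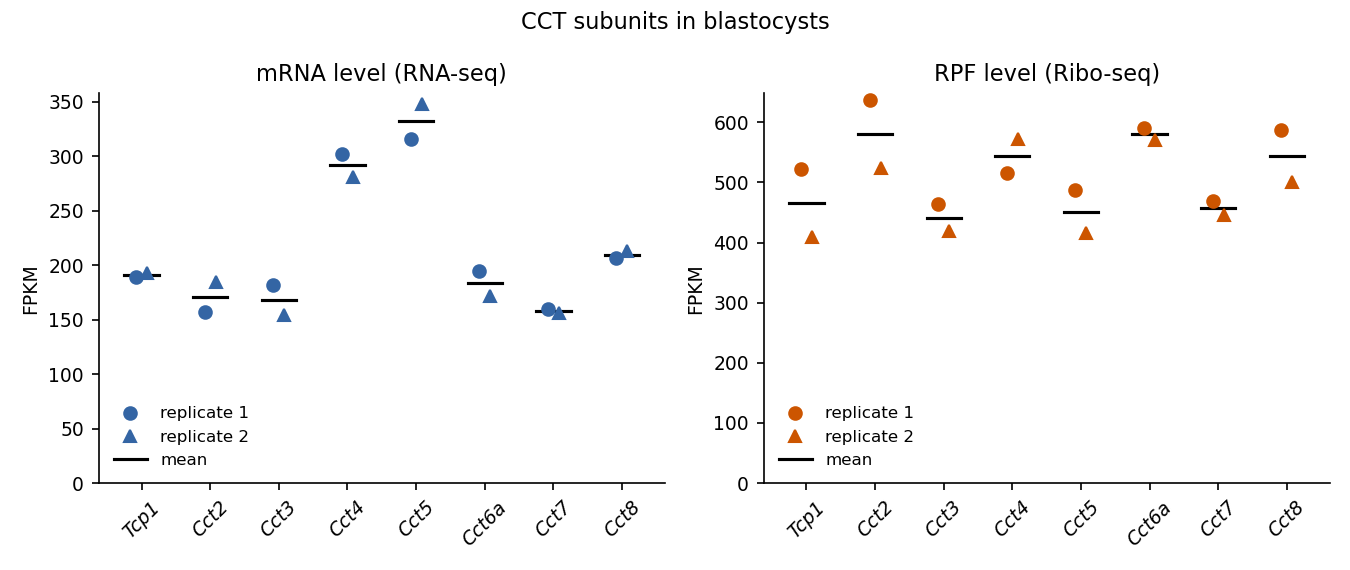
Level in FPKM (vertical axes, from 0) of each of the 8 CCT subunits in RNA-seq (left) and Ribo-seq (right), with 1 symbol per replicate library and a bar at the mean. Cct4 and Cct5 stand above the other 6 subunits for mRNA, at 281 to 348 FPKM, whereas the RPF values run from 409 to 636 FPKM with no neighbouring subunits apart.

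Counting intervals were computed for the RPF levels of the subunits. For Cct5 the exact Poisson interval at the 95% level ran from 438 to 539 FPKM in replicate 1 and from 369 to 466 FPKM in replicate 2. For Cct2 it ran from 581 to 696 FPKM and from 472 to 582 FPKM. The intervals of Cct5 and Cct2 did not overlap within either replicate, and neither did those of Cct3 or Tcp1 with Cct2. The remaining pairs were not counted. These intervals cover counting error only.

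Across the 8 subunits, the SD of the log2 level was 0.39 for mRNA (0.38 and 0.41 in the separate replicates) and 0.17 for RPF (0.17 and 0.20). The SD between replicates of a subunit was 0.11 in each assay, for a single library and with the mean shift of the 8 between replicates removed. The spread of the mRNA levels thus stood further above this replicate error than that of the RPF levels. The mRNA spread rested on Cct4 and Cct5. Without these genes, a choice made after their values were seen, the SD over the other 6 subunits was 0.15 for mRNA and 0.18 for RPF, and the highest mean was 1.33 and 1.32 times the lowest.

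As a description over 8 points that share their libraries, the Spearman correlation between the mean mRNA and the mean RPF level was 0.10. The same measure between replicates was 0.79 for mRNA and 0.45 for RPF, so the RPF order itself was only partly kept from 1 replicate to the other. The ratio of the RPF mean to the mRNA mean, in deposited FPKM, was lowest for Cct5, at 1.36, and highest for Cct2, at 3.40, a range of 2.5-fold around a median of 2.61. The ratio was 1.87 for Cct4, the second lowest, and between 2.44 and 3.17 for the other 5.

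The share of each subunit in the ring total removes the scale of the assay. An equal share would be 12.5%. Cct5 made up 18.5% and 20.4% of the mRNA total in the RNA-seq replicates, and 11.4% and 10.8% of the RPF total in the Ribo-seq replicates. Cct4 made up 17.7% and 16.5% of the mRNA total and 12.1% and 14.8% of the RPF total. The means were 19.5% against 11.1% for Cct5 and 17.1% against 13.5% for Cct4. For both genes the 2 assays did not overlap, but the same held for every other subunit except Tcp1. How often the assays are apart in this way for other genes was not counted.

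In the opposite direction, Cct2 made up 9.19% and 10.9% of the mRNA total and 14.9% and 13.6% of the RPF total. Cct6a made up 11.4% and 10.1% of the mRNA total and 13.8% and 14.8% of the RPF total. Cct7 and Cct8 had slightly higher RPF shares, with means of 11.3% against 9.26% and 13.4% against 12.3%. The share of Tcp1 was 11.2% ± 0.17 (SD, n = 2) for mRNA and 11.4% ± 1.16 (SD, n = 2) for RPF, with overlapping values. Cct3 moved little, from 9.85% ± 1.15 to 10.9% ± 0.01 (SD, n = 2 each). Mean shares ran from 9.26% to 19.5% for mRNA and from 10.9% to 14.3% for RPF. The 8 shares sum to a fixed total, so a lower share of 1 subunit raises those of others.

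**Figure D2:**
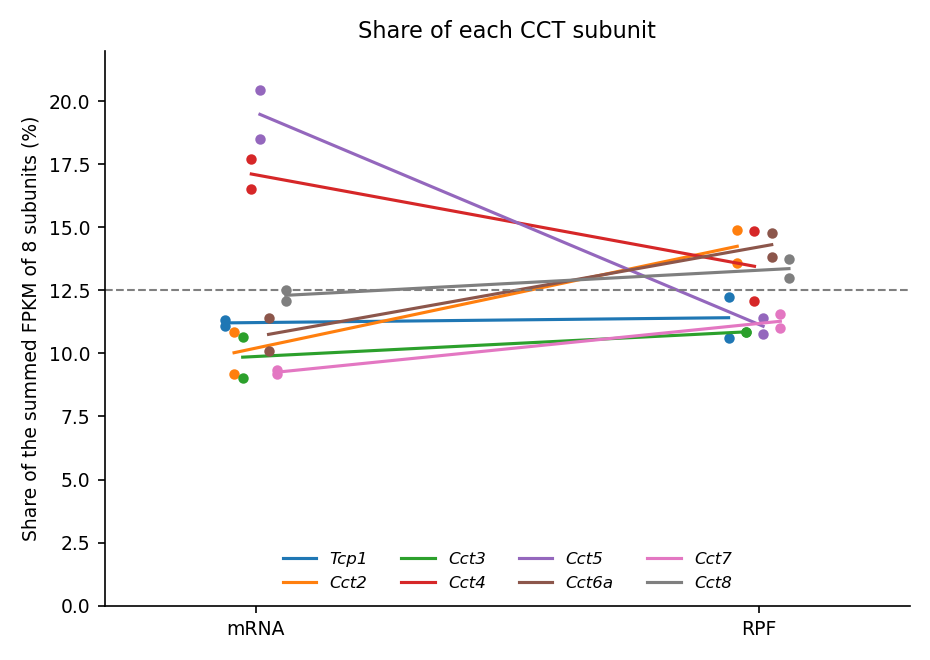
Share of each subunit in the summed FPKM of the 8 (vertical axis, in %) for mRNA and RPF, with points for the replicate libraries, lines joining the means of the assays, and a dashed line at the equal share of 12.5%. Cct4 falls towards the dashed line and Cct5 falls past it, to 11.1%, and the mean shares narrow from 9.26% to 19.5% at the mRNA level to 10.9% to 14.3% at the RPF level.

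The question of whether any subunit carried more or fewer ribosomes for its mRNA than other genes was tested in 1 fit over 8327 genes. Values were log2(FPKM + 1), each library was centred on the median of the tested genes, and limma was used with the Benjamini-Hochberg method. The threshold was an adjusted p under 0.05 together with a log2 difference of at least 1 in either direction. None of the 8 CCT subunits passed in either direction, and 1 had an unadjusted p under 0.05, against 36.3% of all genes tested. Among all genes tested, 6.65% passed as higher in RPF and 5.31% as lower. The labels do not say that replicates came from separate pools of embryos, so the p-values measure the spread between these libraries, which may be technical.

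Cct5 had the lowest difference of the 8, at -1.06 (SE 0.24, 95% interval -1.74 to -0.39, adjusted p = 0.0644 by limma). Its centred RPF level was under its centred mRNA level in all 4 pairs of a Ribo-seq with an RNA-seq library, with pair differences from -0.93 to -1.20. The same sign in all 4 pairs was also found for Tcp1, Cct4, and Cct8, and the opposite sign in all 4 for Cct2, Cct6a, and Cct7. The pairs share libraries, and how often other genes keep 1 sign was not counted. Cct5 ranked at percentile 23.7 of all genes tested. This value lay next to the threshold and went past it in 6 of 13 alternative settings. Its adjusted p over the settings ran from 0.00934 to 0.373, and the sign turned only on unscaled FPKM (0.44). The adjusted p was 0.0303 and 0.0464 by limma without Ribo-seq replicate 1 or 2, and 0.332 and 0.373 without RNA-seq replicate 1 or 2.

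Cct4 had a difference of -0.61 (SE 0.25, 95% interval -1.30 to 0.09, adjusted p = 0.172 by limma), negative in all 4 pairs of libraries. Cct2 was the highest of the 8, at 0.25 (SE 0.26, 95% interval -0.45 to 0.96, adjusted p = 0.508 by limma). The remaining values were -0.23 for Tcp1, -0.14 for Cct8, -0.11 for Cct3, 0.03 for Cct7, and 0.16 for Cct6a, each with an SE of 0.24 to 0.25. The intervals of Cct5 and Cct2 touched only between -0.45 and -0.39. A test of the difference between subunits was not run.

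The median over the 8 subunits was -0.12, and the median of all genes tested was -0.24, with quartiles of -1.0 and 0.55. The CCT median was thus close to that of the whole set. The median half-width of the 95% intervals was 0.92, so smaller differences could not be told from no difference for a typical gene. These intervals are not adjusted for the number of genes tested, so a larger difference was needed to pass the threshold. Cct5, at -1.06, did not pass although its whole interval, -1.74 to -0.39, was negative. The values depend on the scale: on unscaled FPKM the median of all genes moved to 1.26, 6 of the 8 subunits passed as higher, as did 49.4% of all genes tested, and the CCT median was 1.38.

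**Figure D3:**
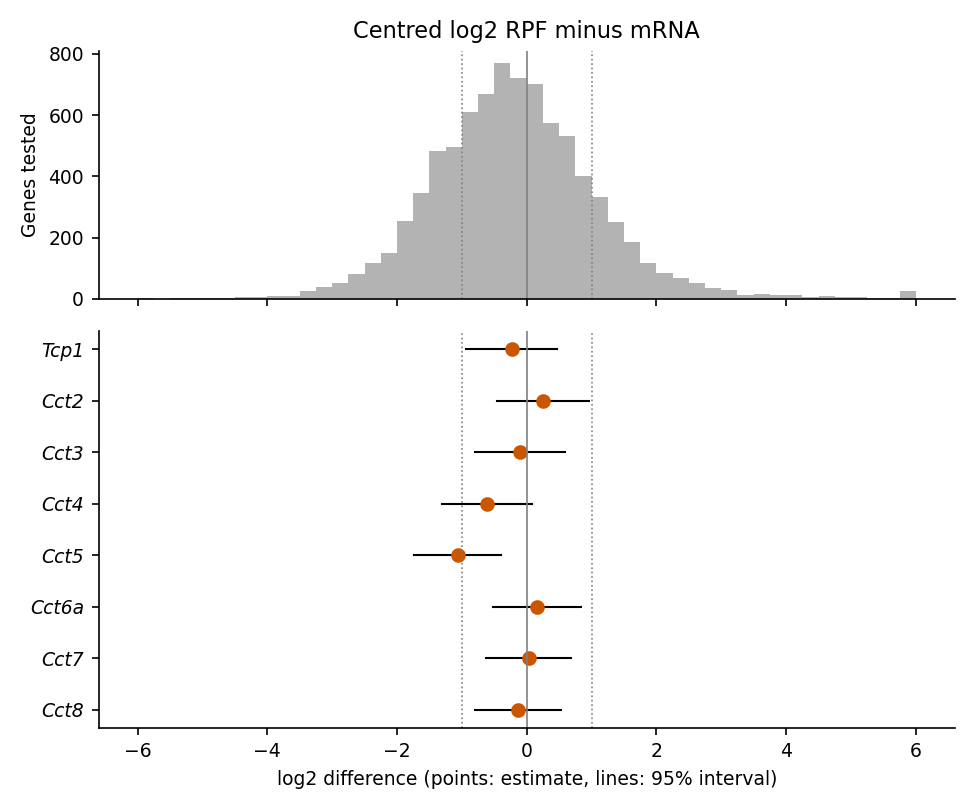
Centred log2 RPF minus mRNA for the 8327 genes tested (upper panel, number of genes per 0.25 bin, values beyond 6 drawn in the end bins) and for the 8 CCT subunits (lower panel, points with 95% intervals from limma). Dotted lines mark a difference of 1 in each direction. The 8 subunits lie from -1.06 to 0.25, inside the bulk of all genes.

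Other complexes of fixed composition were set beside CCT as a description. The 14 subunits of the 20S proteasome, the core of the protein-degrading machine, had an SD of the log2 level of 0.47 for mRNA and 0.38 for RPF, and their RPF levels ran from 311 FPKM for Psma4 to 840 FPKM for Psma2. The 6 subunits of MCM2-7, the replicative helicase, had an SD of 0.51 for mRNA and 0.28 for RPF, with RPF levels from 71.1 FPKM for Mcm2 to 114 FPKM for Mcm6. The 6 prefoldin subunits had an SD of 1.136 for mRNA and 0.70 for RPF. The RPF spread was the lower of both in each of the 4 complexes, and CCT had the lowest spread of the 4 in both assays, at 0.39 and 0.17. Without Cct4 and Cct5 the RPF spread of CCT, at 0.18, was no longer under its mRNA spread, at 0.15.

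The complexes were not equal in their errors. The counting SD of the RPF means was 0.05 for CCT, 0.09 for the 20S proteasome, 0.10 for MCM2-7, and 0.14 for prefoldin, whose coding sequences are shorter. The ranges between highest and lowest RPF mean were 1.32-fold, 2.70-fold, 1.61-fold, and 4.21-fold in the same order. No difference in spread between complexes was tested.

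**Figure D4:**
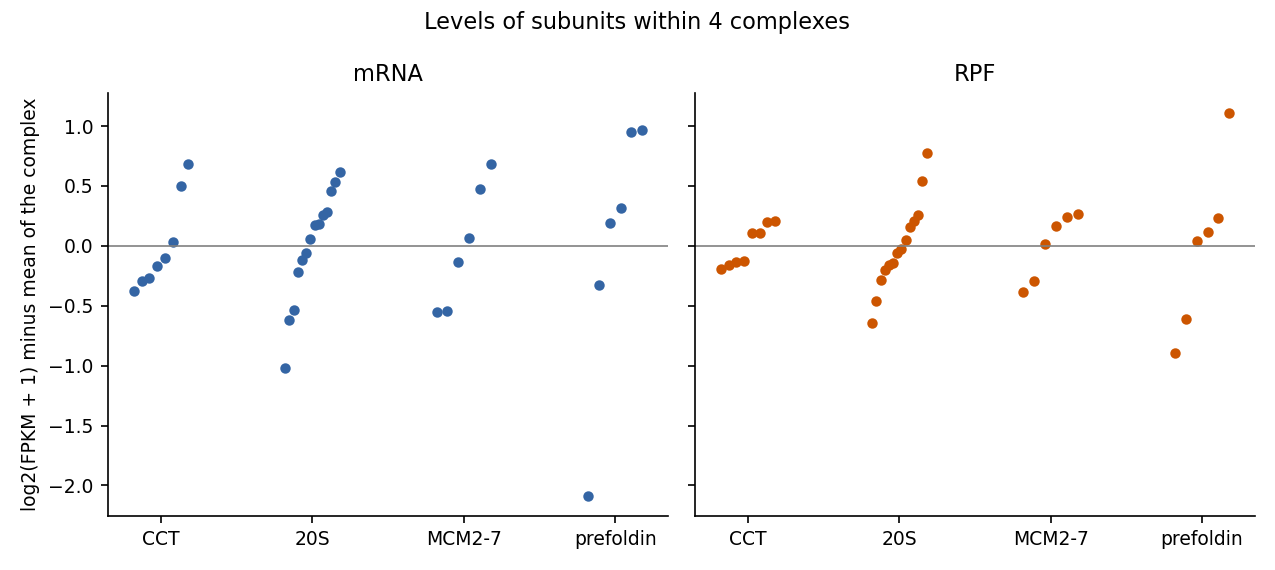
Level of each subunit as log2(FPKM + 1) minus the mean of its complex (vertical axes, the mean of 2 libraries) for mRNA (left) and RPF (right), with 1 point per subunit, sorted by value. The CCT points span the smallest range in the RPF panel, where the SD was 0.17, against 0.38 for 20S, 0.28 for MCM2-7, and 0.70 for prefoldin.

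The RPF level for the mRNA present was also set beside that of the other complexes. For 20S, 3 of 14 subunits passed as lower in RPF and none as higher, against 5.31% and 6.65% of all genes tested. The median difference was -1.12, with 13 of 14 values negative, where the median of all genes tested was -0.24. Psmb3 had the lowest, at -2.11 (adjusted p = 0.0271 by limma), but 86.0% of its windows of 28 bases occurred elsewhere in the genome, so its value is uncertain. The shares were 0% for Psmb4 and 0.52% for Psmb2. Their differences, also past the threshold, were -1.43 and -1.52. For MCM2-7, 0 of 6 passed by limma, with 0 at an unadjusted p under 0.05, and the median was 0.33. The CCT median, at -0.12, lay between them.

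The partner genes of CCT comprised 46 genes in 8 lists, of which 39 were tested. Of these, 2 passed as higher in RPF and 2 as lower, near the 6.65% and 5.31% of all genes tested, so these counts set the partner genes apart in neither direction. With either RNA-seq library left out no gene passed in limma, these 4 and the 3 proteasome genes included. Among the 6 prefoldin subunits, 1 passed as higher. This was Pfdn2, a beta-type subunit, with 11.5 and 19.5 FPKM in the RNA-seq libraries and 761 and 1385 FPKM in the Ribo-seq libraries. Its centred difference was 4.50 (SE 0.47, adjusted p = 0.0246 by limma).

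The other prefoldin subunits did not pass. Pfdn6 was at 1.16 (adjusted p = 0.0564 by limma) and Pfdn4 was at 1.74 (adjusted p = 0.0674 by limma), the latter with RPFs at 735 FPKM in replicate 1 and 361 FPKM in replicate 2. Pfdn1, Vbp1, and Pfdn5 were at 0.57, 0.09, and -0.26. The mRNA level of Pfdn2 was the lowest of the 6 and its RPF level the highest, so it stood at opposite ends of its complex in the assays, as Cct5 nearly did in its own.

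The phosducin-like cofactors Pdcl, Pdcl3, and Txndc9, which bind CCT, had differences of 0.92, 1.02, and 1.62. None of the 3 passed by limma, and all 3 had an unadjusted p under 0.05, as did 36.3% of all genes tested. For Txndc9, 63.2% of the windows of 28 bases occurred elsewhere in the genome. Pdcl2, a relative known from germ cells, was listed at 0 in all 4 libraries. The 5 tubulin cofactors, which take tubulin after its release from CCT, ranged from -1.29 for Tbcd to 0.44 for Tbcc, and none passed (0 at an unadjusted p under 0.05). Tbca stood out in level, with mRNA at 192 and 242 FPKM and RPFs at 568 and 511 FPKM, in the range of the CCT subunits. However, 71.0% of its windows occurred elsewhere in the genome, and its 327 coding bases count as 136.0, which raises its RPF level.

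Among 14 actin and tubulin genes, the main clients of CCT, 12 were tested, 1 passed as higher, and 1 passed as lower. Actb, encoding cytoplasmic beta-actin, had RPF levels of 10550 and 10403 FPKM and a difference of -0.83 (adjusted p = 0.109 by limma). Tuba1b, an alpha-tubulin, passed as lower, at -1.80 (adjusted p = 0.0444 by limma), with mRNA at 277 and 413 FPKM and RPFs at 267 and 282 FPKM. Tubb2b, a beta-tubulin, passed as higher, at 2.11 (adjusted p = 0.029 by limma), with mRNA at 1.93 and 1.55 FPKM and RPFs at 35.4 and 29.6 FPKM.

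The values of these client genes are uncertain, because their coding sequences share windows. For Tuba1b, 96.9% of the windows of 28 bases occurred elsewhere in the genome, and 1123 windows were shared with another gene of the lists. For Tubb2b the share was 79.3%, with 825 windows shared with another listed gene. Actg1 had 94.9%. Reads of such genes may be split among their copies in both assays.

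Other proteins known to fold on CCT are regulators of the cell cycle and signalling. Of 10 such genes, all tested, 1 passed. Rptor, the Raptor subunit of mTORC1, passed as lower in RPF, at -1.57 (adjusted p = 0.04 by limma), with mRNA at 4.23 and 4.26 FPKM and RPFs at 3.68 and 4.33 FPKM. These RPF levels correspond to about 7.47 and 7.96 RPFs, and the call was lost with a pseudocount of 0.1, with quantile normalization, with an intensity trend, and without centring, at adjusted p values of 0.0568, 0.066, 0.0626, and 0.837 by limma. Ccne1, encoding cyclin E1, rested on about 2.0 and 5.99 RPFs. It had the lowest difference of the list, at -2.36, and did not pass (adjusted p = 0.087 by limma). Cdc20, the activator of the anaphase-promoting complex, was at -0.22, and Mlst8, which like Raptor belongs to mTORC1, was at 0.43.

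Relatives of the CCT subunits were low. Cct6b, the testis form of the zeta subunit, stood at 4.99 and 4.43 FPKM in RNA-seq, where Cct6a stood at 195 and 172 FPKM. In Ribo-seq it stood at 5.86 and 1.61 FPKM. The RPF values of Cct6b correspond to about 4.36 and 1.09 RPFs, so its difference of -1.93 (adjusted p = 0.0835 by limma) rests on few fragments. Cct8l1 was listed at 0 in 3 libraries and at 0.22 FPKM in RNA-seq replicate 2. Of the chaperonin-like genes of the Bardet-Biedl group, Mkks mRNA was at 12.5 and 15.1 FPKM, whereas its RPFs were listed at 0 in both Ribo-seq libraries, where the limit for a count of 0, set at 3 RPFs and not by the exact Poisson interval used above, was 3.72 and 4.10 FPKM. Bbs10 and Bbs12 had mRNA levels of at most 0.50 FPKM.

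The mitochondrial chaperonin, a separate folding machine, offered a comparison from another compartment. Hspd1, its ring subunit, was at 136 and 149 FPKM in RNA-seq and at 516 and 548 FPKM in Ribo-seq, close to the CCT subunits in both assays. Hspe1, its lid, was higher, at 669 and 775 FPKM in RNA-seq and at 4170 and 5816 FPKM in Ribo-seq. Differences were 0.39 for Hspd1 and 1.27 for Hspe1, and neither passed. Shared windows made up 82.5% of Hspd1 and 87.2% of Hspe1. The 309 coding bases of Hspe1 count as 122.2 in the length scaling, which raises its RPF level and its difference.

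**Figure D5:**
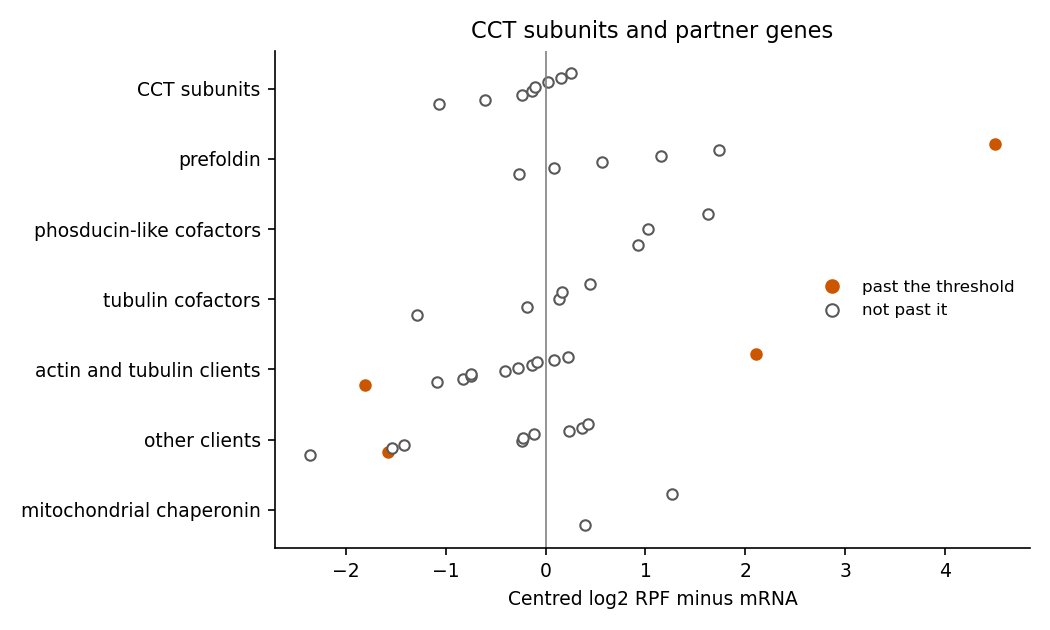
Centred log2 RPF minus mRNA (horizontal axis) for the 8 CCT subunits and the tested genes of 6 partner lists, 1 point per gene, filled where the gene passed the threshold in limma. The genes that passed are Pfdn2 at 4.50, Tubb2b at 2.11, Tuba1b at -1.80, and Rptor at -1.57, and no CCT subunit is filled.

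The genes whose levels over the 4 libraries lay nearest to the median profile of the 8 subunits were, by root mean square distance on the log2 scale, Elf3 (0.07), Tomm22 (0.08), Cetn3 (0.10), Cldn7 (0.10), and Fkbp3 (0.12). Elf3 was at 185 and 186 FPKM in RNA-seq and at 552 and 505 FPKM in Ribo-seq. Among the subunits themselves, Tcp1 lay nearest, at 0.11, and Cct5 farthest, at 0.58. The 5 genes were all nearer to the CCT profile than 7 of its 8 subunits, and the first 4 were also nearer than Tcp1.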

How the data were processed

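RNA-seq and Ribo-seq of blastocysts were analysed, with 2 replicate libraries each, grouped by the sample titles. The authors deposited FPKM per gene and library. They trimmed reads with Trim Galore 0.4.2 (RNA-seq) or cutadapt 1.14 (Ribo-seq), removed rRNA reads from Ribo-seq with Bowtie2 2.2.2, mapped to the mm9 transcriptome with STAR 2.5.3a, and quantified with Cufflinks 2.2.1, over transcripts (RNA-seq) or coding sequences (Ribo-seq), so reads that map to several places may be shared or split among genes.

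Here, the highest FPKM was kept for a repeated symbol. The fit used limma 3.58.1 in R 4.3.3 on log2(FPKM + 1), which understates differences of low genes, for genes that averaged 1 FPKM or more in each assay, without the replicate number as a block. Spreads are SDs over subunits of the mean log2 level. Fragment totals were inferred from steps among low FPKM, with Cufflinks' default fragment lengths (mean 200 and SD 80 bases), and 63.2% to 84.2% of the values used lay within 0.1 of a whole fragment, where chance gives 20%. Coding sequences, coordinates, and windows came from GENCODE vM1 on NCBIM37. The fit, the depth estimate, and the window count were tested on simulated data. For the fit, 58.5% of 200 changed genes among 8327 were recovered, and 5.65% of the calls fell on unchanged genes. Every planted change was larger than the log2 difference of 1 in the threshold. Recovery of differences as small as those of the CCT subunits was thus not measured. Other steps used Python 3.11.15.

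The subunits and gene lists were chosen with earlier results of these data known. Named genes were the subunits, the partner lists, the ends of the other complexes, the genes that passed in them, and the 5 nearest profiles. Alternatives were the pseudocount, filters, scaling, repeated symbols, an intensity trend in limma, a replicate block, and each library left out. Protein sequences and other stages were not used here.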

Additional observations from a re-analysis of the deposited data

How the results depend on the processing

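Libraries numbered alike are not said to share embryos, and the changes from replicate 1 to 2 correlated at 0.01 between assays over 8327 genes. With the replicate block, 0 of all genes and 0 of the partner genes passed in either direction. The count of all genes higher in RPF, 554, was 308 with a pseudocount of 0.1, 1396 without the filter, 4113 without centring, and 861 with an intensity trend, and 0 to 1187 with a library left out. The count lower, 442, was 154, 3096, 65, and 716 under these settings, 751 at a mean FPKM of at least 5, 956 with TPM scaling, and 0 to 1647 with a library left out. Leaving out either RNA-seq library gave 0 calls, and leaving out Ribo-seq replicate 1 or 2 gave 1172 and 1187 higher and 1647 and 1640 lower. An arm of 1 library is then assumed to vary like the other.

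Of the CCT subunits, 6 passed as higher without centring. Cct5 passed as lower, 1 of 8, at a mean FPKM of at least 5, with TPM scaling, quantile normalization, or the trend, and without Ribo-seq replicate 1 or without replicate 2 (0 to 1 with a library left out). The partner genes higher, 2, were 8 without the filter, 4 at a mean FPKM of at least 5, 25 without centring, 7 with the trend, and 0 to 7 with a library left out. The partner genes lower, 2, were 0 with a pseudocount of 0.1 or without centring, 5 without the filter or with TPM scaling, 1 with quantile normalization, and 0 to 7 with a library left out.

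The CCT median of -0.12 was -0.22 with a pseudocount of 0.1, 0.15 without the filter, -0.17 at a mean FPKM of at least 5, 1.38 without centring, -0.54 with TPM scaling, -0.44 with quantile normalization, and -0.227 to -0.0618 with a library left out. The median of all genes moved to 1.26 without centring and to -0.43 with TPM scaling. The mRNA spread of 0.39 was 0.44 with quantile normalization and 0.38 to 0.41 with a library left out, and the RPF spread of 0.17 was 0.17 to 0.20. The sign of single subunits turned without centring (Tcp1 1.27, Cct3 1.39, Cct4 0.90, Cct5 0.44, Cct8 1.37), without the filter (Tcp1 0.0386, Cct3 0.16, Cct8 0.14), with TPM scaling (Cct2 -0.16, Cct6a -0.26, Cct7 -0.39), with quantile normalization (Cct2 -0.03, Cct6a -0.12, Cct7 -0.26), with a pseudocount of 0.1 (Cct7 -0.066), at a mean FPKM of at least 5 (Cct7 -0.0184), and with a library left out (Cct3 -0.240 to 0.0223, Cct7 -0.0198 to 0.0566). Beyond the scaling itself, the cause was not tested. With about 286 to 478 RPFs per subunit, the counting SD of the RPF means was 0.05 on the log2 scale. The SD between replicates was 0.11, but for a single library, so the values are not directly comparable. The settings for single partner genes and the spread without Cct4 and Cct5 were added after seeing the data.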
